A study of Mus musculus with 47 samples.

Results

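The hypothalamus of female mice in metestrus was compared with that of female mice in proestrus by messenger RNA sequencing, with 3 libraries in each group. These 6 libraries were chosen by their labels for region and stage, out of 47 libraries that cover 4 brain regions and 4 stages of the estrous cycle. All were made from C57BL/6J mice, an inbred laboratory strain, that were bought as adults, group housed and left untreated. The metestrus mice were 90, 91 and 91 days old, and the 3 proestrus mice were 91 days old. The whole hypothalamus of both sides was taken from each animal, so every value is a mean over many nuclei, and fewer cells of a type cannot be told apart from less RNA per cell. The labels do not tie libraries with the same number to a shared litter, day or animal, and the assignment of libraries to sequencing lanes is not known here. The study's question is the stability of gene expression in the brain through the cycle, and this comparison puts it to the hypothalamus for a stage after ovulation against the stage before it.

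In the estrous cycle, estrogen from the ovary peaks in proestrus and sets off the surge of luteinizing hormone that leads to ovulation, while metestrus follows estrus, with corpora lutea forming. The hypothalamus senses the ovarian steroids through their receptors and governs the pituitary gland below it with releasing hormones and dopamine. Prolactin, a hormone of the anterior pituitary, is held back by dopamine neurons of the arcuate nucleus, and those neurons carry the prolactin receptor. The pituitary itself hangs from the hypothalamus by a stalk and is not part of it.

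The total count was 5877885, 4801554 and 2266013 in Metestrus 1, 2 and 3, and 5104696, 2933832 and 8264980 in Proestrus 1, 2 and 3. All 10 marker genes of hypothalamic tissue, among them Oxt, Avp, Pmch and Hcrt, were higher in each of these 6 libraries than in any library of the other 3 regions. The libraries differed in composition in a way that stage does not follow. Lars2, the gene of a mitochondrial leucyl-tRNA synthetase, took 1.89%, 8.62% and 10.6% of the counts in Metestrus 1, 2 and 3, and 1.96%, 8.18% and 1.34% in Proestrus 1, 2 and 3. Small RNA genes took 0.727%, 4.23% and 5.06% of the metestrus counts and 0.785%, 4.20% and 0.541% of the proestrus counts. High shares of both were therefore seen in Metestrus 2, Metestrus 3 and Proestrus 2, and low shares in Metestrus 1, Proestrus 1 and Proestrus 3. No 2 libraries of a stage were identical, and the pairs closest to each other were Metestrus 2 with 3 and Proestrus 1 with 3, at 3.26 and 3.76 chi-square units per degree of freedom, against 50.5 to 80.7 for the other 4 pairs within these stages. Expression is given in CPM, counts scaled to a common library size after correction by the trimmed mean of M-values (TMM).

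Prl, which encodes prolactin, had 65, 55 and 78 raw counts in the metestrus libraries and 0, 0 and 0 in the proestrus libraries. In CPM this came to 9.72, 12.9 and 41.1 in Metestrus 1, 2 and 3, against 0 in all 3 proestrus libraries. All metestrus libraries lay above all proestrus libraries, and Metestrus 3, the least deep of the 6, had the highest level. Pooled over the metestrus libraries the level was 15.4 CPM (95% Poisson interval 13.35 to 17.73, which covers counting error only). A count of 0 over the 3 proestrus libraries allows up to 3 counts, or 0.166 CPM. The pooled metestrus level of Prl was 93.05-fold above that floor. This ratio leaves out the counting error of metestrus, so it is not a lower bound. It was 130-fold without Metestrus 1, 101-fold without Metestrus 2 and 66.2-fold without Metestrus 3. In edgeR's quasi-likelihood test over 15230 genes, Prl had the smallest p of all (7.515e-06) and did not pass the adjustment (adjusted p = 0.1145). Prl entered this test only through its metestrus counts, so this p and rank add no separate support.

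Gh, which encodes growth hormone, another hormone of the anterior pituitary, had 19, 17 and 46 counts in metestrus and 0, 0 and 0 in proestrus. Its levels were 2.84, 3.99 and 24.2 CPM in Metestrus 1, 2 and 3, against 0 in the 3 proestrus libraries. The groups did not overlap, and Metestrus 3 again stood highest. The pooled metestrus level of Gh was 38.5-fold above the same floor of 3 counts over the proestrus libraries. This ratio, again no lower bound, was 19.85-fold without Metestrus 3 and 61.8-fold without Metestrus 1. The edgeR test gave an unadjusted p of 3.204e-04 and an adjusted p of 0.9998. The fitted log2 fold changes, 9.44 for Prl and 8.28 for Gh, depend on the prior count of the fit because proestrus is at 0, and they are not bounds.

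**Figure D1:**
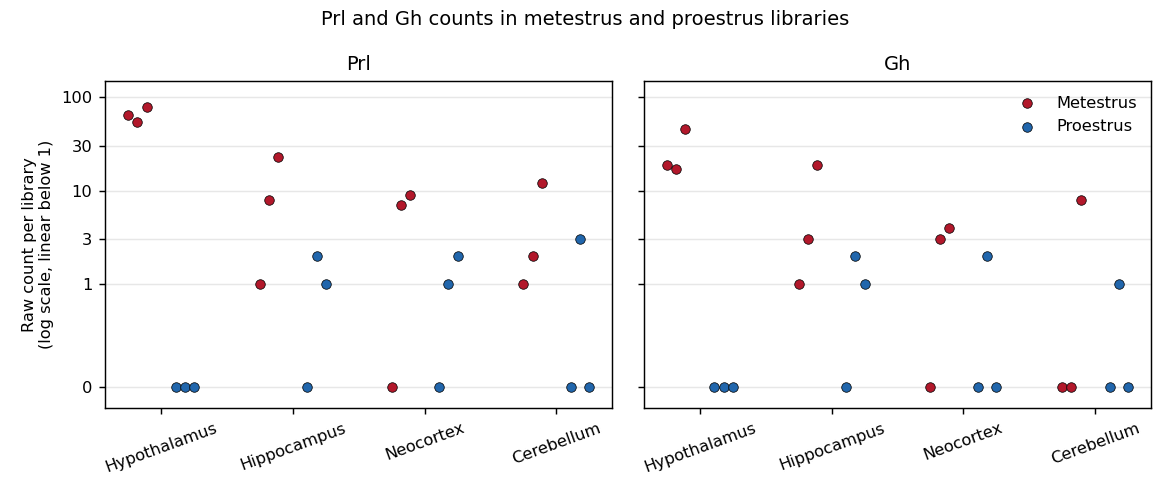
Raw counts of Prl (left) and Gh (right) in each metestrus (red) and proestrus (blue) library of the 4 regions, with libraries 1 to 3 from left to right in each group and a count axis that is logarithmic above 1. In the hypothalamus the metestrus libraries hold 55 to 78 Prl and 17 to 46 Gh counts and all proestrus libraries hold 0, while the highest count in another region is 23, in the hippocampus library Metestrus 3.

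The 2 hormone genes lie apart in the genome (GRCm38), Prl on the plus strand of chromosome 13 from position 27057570 to 27065205 and Gh on the minus strand of chromosome 11 from 106300271 to 106301865. The Prl promoter is shown because Prl carries the largest difference of the comparison and its promoter is a textbook target of POU1F1, the pituitary transcription factor that activates both genes. The following 300 bases, from RefSeq on GRCm38.p6 at chr13:27057320-27057619 (plus strand), run from 250 bases before the start of the gene to 50 bases from it, and capitals mark both matches to TATNCAT, searched on both strands as the core of POU1F1 sites.
Prl: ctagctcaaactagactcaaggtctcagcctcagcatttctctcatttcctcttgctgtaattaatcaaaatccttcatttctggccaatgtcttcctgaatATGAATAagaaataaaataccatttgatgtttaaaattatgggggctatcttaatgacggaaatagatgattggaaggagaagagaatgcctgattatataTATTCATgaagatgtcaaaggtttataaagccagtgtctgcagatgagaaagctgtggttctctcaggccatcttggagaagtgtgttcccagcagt
One match lies on the minus strand and starts 148 bases before the gene's start, and the other lies on the plus strand, 47 bases before it. The same letters occur in 8.84% of the 32851 mouse promoters of that table, and in none of the promoters of Pomc, Cga, Fshb and Tshb. The full palindromic estrogen response element was searched as well and had no match in these 5 promoters, while 0.07% of all promoters hold it. The promoter of Gh was not among those available and was not searched.

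No other pituitary gene given here was present in all metestrus libraries and at 0 in all proestrus libraries. Pomc, the precursor of corticotropin and of the melanocortins, which arcuate neurons also make, was at 48.8, 43.9 and 114 CPM in metestrus and at 49.7, 40.5 and 65.7 CPM in proestrus. The groups overlapped, with the highest value in Metestrus 3, and the log2 fold change was 0.28 ± 0.27 (SE), which turned to -0.19 without Metestrus 3. Cga, the alpha subunit shared by the pituitary glycoprotein hormones, had 22, 22 and 0 counts in metestrus and 10, 0 and 35 in proestrus, so that the library with the most Prl held none of it. Fshb, the beta subunit of follicle-stimulating hormone, had 0 counts in all 6 libraries. Tshb, that of thyrotropin, had 0, 3 and 1 counts in metestrus and 2, 1 and 5 in proestrus, and it overlaps Tspan2. POU1F1's own gene, Pou1f1, had 5, 3 and 5 counts in metestrus and 10, 6 and 8 in proestrus, which is too few to pass the low-count filter. In CPM it was at 0.748, 0.705 and 2.64 in metestrus and at 1.73, 2.34 and 0.822 in proestrus, highest in Metestrus 3. Pitx1, a homeobox gene of the pituitary, had 13, 11 and 1 counts in metestrus and 8, 0 and 30 in proestrus. Lhx3, another pituitary transcription factor gene, had 5, 0 and 3 counts in metestrus and 3, 0 and 10 in proestrus. It was at 1.58 CPM in Metestrus 3 and at 1.03 CPM in Proestrus 3. In CPM, Pomc, Pou1f1 and Lhx3 were thus highest in Metestrus 3, as Prl and Gh were, while Cga and Pitx1 were not. Ghrhr, the receptor through which the hypothalamus stimulates growth hormone cells, had 1 count in Metestrus 3 and 0 in the other 5 libraries, and Gnrhr, the receptor of gonadotrope cells, had 0 in all 6. Where Prl and Gh were present, Ghrhr, Gnrhr and Fshb were thus at 0 or 1 count, while Cga and Pitx1 had counts in Metestrus 1 and 2 of a size close to that of Gh, and the source of the Prl and Gh counts was not tested.

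Of the pituitary hormone list, 4 of 7 genes were tested, and none passed the adjusted threshold. Prl and Gh were at 0 in all proestrus, estrus and diestrus libraries of the hypothalamus. They passed the low-count filter only through metestrus, so their lack of overlap was fixed once they were tested. It is therefore not set against the share of all genes. The p-values, ranks and calls of Prl and Gh in all fits given here carry the same limit and add no separate support. Over all 15230 genes tested, 3.17% did not overlap with metestrus higher, 4.33% with metestrus lower, and 0% passed the adjusted threshold. Of 15 pituitary transcription factor and receptor genes, 6 were tested, with a median log2 fold change of 0.08.

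Small numbers of Prl and Gh counts were also present in the other regions, with the highest counts in metestrus libraries. In the hippocampus Prl had 1, 8 and 23 counts in Metestrus 1, 2 and 3 and 0, 2 and 1 in Proestrus 1, 2 and 3. In the neocortex it had 0, 7 and 9 in metestrus and 0, 1 and 2 in proestrus, and in the cerebellum 1, 2 and 12 in metestrus and 0, 3 and 0 in proestrus. Metestrus 3 had the highest raw count of Prl in each of the 4 regions, and likewise of Gh, with 19 hippocampus, 4 neocortex and 8 cerebellum counts. In CPM this order turned in the neocortex, where Prl was at 1.105 CPM in Metestrus 2 and 1.003 CPM in Metestrus 3, and Gh at 0.473 CPM in Metestrus 2 and 0.446 CPM in Metestrus 3. The groups overlapped in all 3 of these regions. Prl was at 0 in the 9 diestrus libraries of those regions and in all but 1 of the 8 estrus libraries, a neocortex library with 1 count. Within the hypothalamus there were 3.42, 3.24 and 1.70 Prl counts per Gh count in Metestrus 1, 2 and 3, and Metestrus 3 gave 1.21 for hippocampus, 2.25 for neocortex and 1.5 for cerebellum. The difference between metestrus and proestrus in the hypothalamus was tested against the mean of the same difference in the other 3 regions with edgeR over 18152 genes. Prl had an unadjusted p of 0.003733 and Gh one of 0.04474, and 0 genes passed the adjusted threshold, while 516 genes (2.84%) had an unadjusted p under 0.05.

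The genes of the hypothalamic circuit that restrains and senses prolactin mostly had overlapping groups. Th, tyrosine hydroxylase, the rate-limiting enzyme of dopamine synthesis, was at 13.01, 11.7 and 17.4 CPM in metestrus and at 13.6, 17.5 and 12.2 CPM in proestrus, with a log2 fold change of -0.04 ± 0.24 (SE, 95% interval -0.54 to 0.46). Ddc, the next enzyme of that pathway, was the only one of 8 tested genes of this list whose groups did not overlap (12.5%, against 3.17% of all genes with metestrus higher). It was at 30.4, 28.2 and 35.3 CPM in metestrus and at 25.9, 25.7 and 27.5 CPM in proestrus, a log2 fold change of 0.22 ± 0.14 (SE; edgeR, unadjusted p = 0.1398). Of the 8 genes, 4 lay above 0 and 4 below. Nr4a2 had a smaller p than Ddc and the opposite direction, with overlapping groups and a log2 fold change of -0.46 ± 0.29 (SE; edgeR, unadjusted p = 0.1324). Drd2, the dopamine receptor through which prolactin cells are inhibited, was at 5.83, 5.17 and 3.16 CPM in metestrus and at 5.18, 5.06 and 4.31 CPM in proestrus. Prlr, the prolactin receptor, was at 66.4, 46.3 and 58.5 CPM in metestrus and at 46.3, 58.8 and 52.5 CPM in proestrus. Its log2 fold change was 0.14 ± 0.19 (SE, 95% interval -0.26 to 0.54) and the groups overlapped. Of 12 tested genes of prolactin receptor signalling, 7 lay above 0 and 5 below, and Cish, an inhibitor that the pathway itself induces, had the smallest p. Cish was at 6.58, 4.70 and 5.27 CPM in metestrus and at 6.21, 10.1 and 7.60 CPM in proestrus, a log2 fold change of -0.45 ± 0.25 (SE; edgeR, unadjusted p = 0.08648).

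Across all genes, edgeR called 0 of 15230 at an adjusted p of 0.05. At an unadjusted p under 0.05 there were 125 genes higher in metestrus (0.821%) and 185 lower (1.21%), and the median log2 fold change of all genes was -0.002. These 310 genes are a smaller share of all genes than the 0.05 expected at this threshold when no gene differs. The genes named below are therefore described by their values, and are not established differences. With library totals in place of TMM scaling, 39 were higher and 127 lower, and the median shifted to -0.157. DESeq2 called 0 genes (118 at an unadjusted p under 0.05) and limma voom called 0 (501 at an unadjusted p under 0.05). When voom weighted the samples by quality it called 1 gene, Prl, with an adjusted p of 0.03996, and had 1045 genes at an unadjusted p under 0.05. DESeq2 set the dispersion of Prl and Gh at its upper limit of 12, as for no other gene tested, and gave both an adjusted p of 0.9999. Prl was also called by edgeR without Metestrus 3 (adjusted p = 0.01628), and in none of the other 11 fits that left out 1 library.

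**Figure D2:**
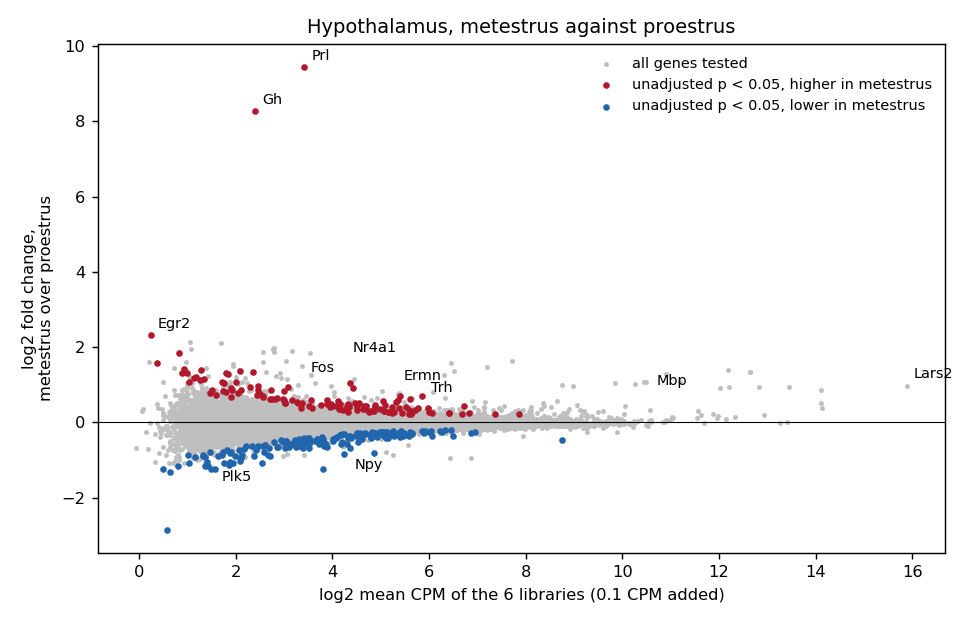
Log2 fold change of metestrus over proestrus against the log2 mean CPM of the 6 libraries (0.1 CPM added) for the 15230 genes tested, with the 125 genes higher and the 185 lower in metestrus at an unadjusted p under 0.05 in red and blue. Prl at 9.44 and Gh at 8.28 stand apart from the rest, which lie mostly near 0.

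After Prl and Gh, the genes higher in metestrus with the smallest p had log2 fold changes between 0.39 and 1.42. Mad2l1, a protein of the mitotic spindle checkpoint, was at 5.83, 5.40 and 4.74 CPM in metestrus and at 2.93, 1.95 and 2.57 CPM in proestrus. All metestrus libraries lay above all proestrus libraries, and the log2 fold change was 1.07 ± 0.35 (SE; edgeR, unadjusted p = 0.007495), though Metestrus 3 held 9 counts and Proestrus 2 held 5. Gjc3, a connexin of oligodendrocytes and other glia, was at 77.5, 70.5 and 64.8 CPM in metestrus and at 61.4, 58.4 and 46.1 CPM in proestrus, a log2 fold change of 0.39 ± 0.13 (SE). Fbln5, an elastic fibre protein, was at 11.1, 11.7 and 7.91 CPM in metestrus and at 5.35, 4.28 and 7.29 CPM in proestrus, a log2 fold change of 0.82 ± 0.27 (SE). In both genes the groups did not overlap, with the narrowest gap between Metestrus 3 and a proestrus library. Pus3, a pseudouridine synthase of transfer RNA, lay between 10.9 and 12.2 CPM in metestrus and between 7.40 and 8.01 CPM in proestrus, but it overlaps Hyls1, and the library kit does not mark strand. Sh3tc2, a Schwann cell gene mutated in a Charcot-Marie-Tooth neuropathy, lay between 1.58 and 3.05 CPM in metestrus and between 0.518 and 1.56 CPM in proestrus. Atp10b, a phospholipid flippase gene, was at 2.54, 1.41 and 1.58 CPM in metestrus and at 0.345, 0.389 and 0.924 CPM in proestrus, from 1 to 17 counts per library. Gm15425, a processed pseudogene within Pde10a, was at 5.23, 7.05 and 10.01 CPM in metestrus and at 2.93, 1.95 and 2.98 CPM in proestrus, and its reads cannot be told apart from those of genes with nearly the same sequence. Zfp968, a zinc finger gene of a large family, had overlapping groups, with 17.9 CPM in Metestrus 2 and 17.9 CPM in Proestrus 2.

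Among the genes lower in metestrus, Plk5, a polo-like kinase of neurons, had the smallest p. It was at 2.84, 4.23 and 4.74 CPM in metestrus and at 8.63, 5.06 and 8.83 CPM in proestrus, with no overlap and a log2 fold change of -1.07 ± 0.31 (SE; edgeR, unadjusted p = 0.003335). Slc16a11, a monocarboxylate transporter gene, was at 30.4, 28.4 and 30.04 CPM in metestrus and at 37.6, 39.7 and 41.0 CPM in proestrus, a log2 fold change of -0.41 ± 0.13 (SE). Slc12a9, a member of the cation-chloride cotransporter family, lay between 25.3 and 27.3 CPM in metestrus and between 33.1 and 35.6 CPM in proestrus, and Arhgap27, a GTPase-activating protein gene, between 12.6 and 16.4 CPM in metestrus and between 18.3 and 23.8 CPM in proestrus. These 3 genes had narrow groups that did not overlap. Sox17, a transcription factor of endothelial cells, was at 2.39, 3.05 and 1.58 CPM in metestrus and at 4.49, 4.67 and 6.16 CPM in proestrus, a log2 fold change of -1.07 ± 0.35 (SE). Esam, an endothelial adhesion molecule gene, was likewise lower without overlap, at 6.73, 8.46 and 4.74 CPM in metestrus and at 9.84, 9.34 and 10.3 CPM in proestrus. Both were lowest in Metestrus 3, and the 18 endothelial and pericyte markers summed to 517, 517 and 421 CPM in metestrus and to 489, 487 and 529 CPM in proestrus. Cpxm1, a carboxypeptidase-like gene, was at 2.54, 2.82 and 1.05 CPM in metestrus and at 5.35, 3.50 and 6.06 CPM in proestrus, a log2 fold change of -1.14 ± 0.35 (SE). Itga2b, the platelet integrin alpha chain, averaged 1.83 ± 0.736 CPM in metestrus and 3.89 ± 0.085 CPM in proestrus (SD, n = 3 each) without overlap, and Rhebl1, a gene related to the GTPase Rheb, lay between 0.527 and 2.39 CPM in metestrus and between 2.93 and 5.06 CPM in proestrus. Gm20532 overlaps Egfl7 and other genes, and Gm7628 and Gm16599 lie antisense in Plxnb1 and Cux1, so their lower counts cannot be assigned to them. Cabp1, a neuronal calcium-binding protein gene, had overlapping groups, with 12.6 CPM in Metestrus 3 and 12.5 CPM in Proestrus 2.

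**Figure D3:**
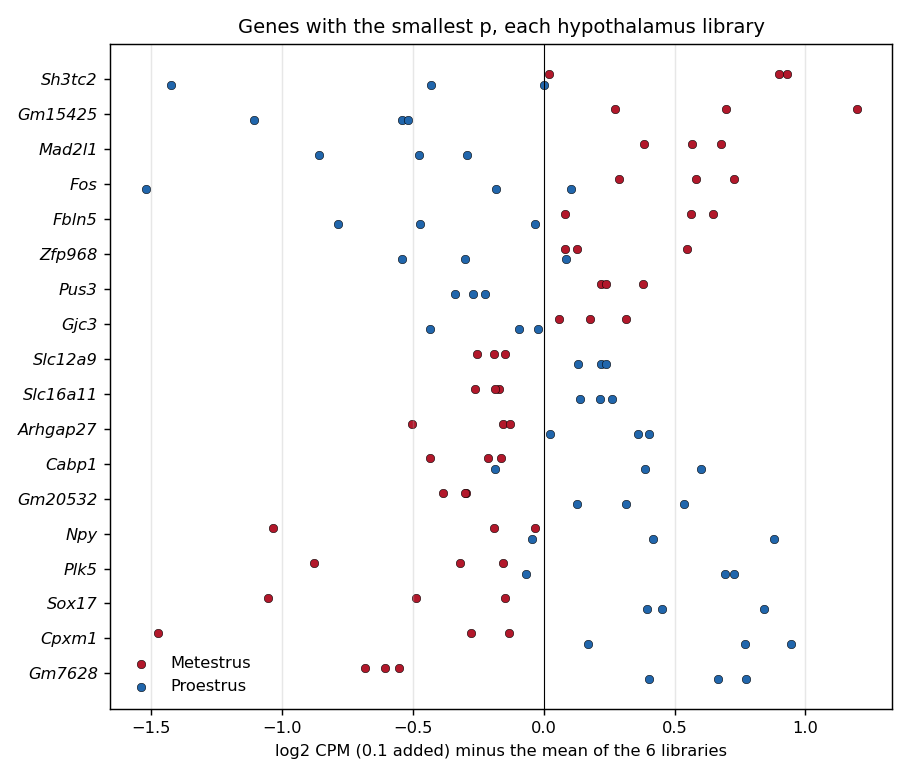
Log2 CPM (0.1 added) of each metestrus (red) and proestrus (blue) hypothalamus library minus the mean of the 6 libraries, for 8 of the 10 genes with the smallest p among those higher in metestrus (top; Prl and Gh are left out) and the 10 among those lower (bottom). The groups overlap in Zfp968, Cabp1 and Npy and in no other gene drawn.

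Immediate early genes, which neurons transcribe within minutes of being activated, lay mostly higher in metestrus. Of 29 tested members, 24 had a log2 fold change above 0 and 5 below, with a median of 0.28, against -0.002 over all genes. Of these, 4 members (13.8%, against 3.17% of all genes) were higher in metestrus without overlap, Fos, Ccn1, Arc and Ier2. An unadjusted p under 0.05 with metestrus higher was reached by 5, Fos, Sik1, Nr4a1, Egr2 and Ccn1, against 0.821% of all genes, and 0 passed the adjusted threshold. Fos, a transcription factor widely used as a marker of neuronal activation, was at 27.7, 22.6 and 30.6 CPM in metestrus and at 16.2, 19.9 and 6.37 CPM in proestrus. It averaged 26.9 ± 4.06 CPM in metestrus and 14.1 ± 6.98 CPM in proestrus (SD, n = 3 each), with the lowest value in Proestrus 3. Its log2 fold change was 1.05 ± 0.33 (SE, 95% interval 0.35 to 1.75; edgeR, unadjusted p = 0.005993, adjusted p = 0.9998). Without Proestrus 3 its unadjusted p was 0.04523.

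Proestrus 2 and 3 differed in several other activity genes. Nr4a1, an orphan nuclear receptor gene, was at 30.8, 29.8 and 19.5 CPM in metestrus and at 16.7, 22.6 and 8.93 CPM in proestrus. Sik1, a kinase gene that cAMP induces, was at 44.0, 48.4 and 47.4 CPM in metestrus and at 31.4, 45.2 and 23.8 CPM in proestrus. Egr1, a zinc finger gene, was at 67.3, 54.0 and 56.4 CPM in metestrus and at 42.8, 57.6 and 20.3 CPM in proestrus. In all 3 genes Proestrus 3 was the lowest library and Proestrus 2 reached the metestrus range. Arc, a synaptic protein gene, was at 16.003, 14.1 and 15.3 CPM in metestrus and at 10.4, 12.8 and 12.5 CPM in proestrus, without overlap, while Ccn1, a secreted matrix protein gene, was at 7.33, 3.05 and 2.63 CPM in metestrus and at 2.24, 2.34 and 2.26 CPM in proestrus. Egr2, another zinc finger gene, rested on Metestrus 1, with 24 counts there, 1 and 3 in Metestrus 2 and 3, and 1, 1 and 5 in proestrus. The list summed to 479, 410 and 417 CPM in metestrus and to 364, 411 and 279 CPM in proestrus, so that Proestrus 2 overlapped metestrus. Without Proestrus 3 the median log2 fold change was 0.23 and 2 members had an unadjusted p under 0.05 in the higher direction, and without Metestrus 1 the median was 0.15, again with 2.

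The Fos promoter is shown because Fos had the smallest p of the activity genes and its start region is known to bind CREB, the factor that cAMP and calcium signals activate. It comes from RefSeq on GRCm38.p6 at chr12:85473640-85473939 (plus strand), again from 250 bases before the start, and capitals mark both matches to TGACG, the core of CREB sites, searched on both strands.
Fos: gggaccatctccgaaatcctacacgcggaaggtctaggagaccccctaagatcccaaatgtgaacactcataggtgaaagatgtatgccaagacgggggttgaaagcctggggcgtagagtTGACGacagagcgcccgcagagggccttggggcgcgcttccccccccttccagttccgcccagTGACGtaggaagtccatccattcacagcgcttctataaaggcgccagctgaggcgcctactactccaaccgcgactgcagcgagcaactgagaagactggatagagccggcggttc
These letters occur in 20.8% of the 32851 promoters of the table, the Prl promoter among them.

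Oligodendrocyte and myelin markers also lay higher in metestrus. Of 20 members, all tested, 19 had a log2 fold change above 0, with a median of 0.32, and 4 had an unadjusted p under 0.05 with metestrus higher, Ermn, Aspa, Ugt8a and Mog, a threshold that 0.821% of all genes reached in that direction. Only Aspa (5% of the list, against 3.17% of all genes) was higher without overlap, a share near that of all genes. Ermn, a cytoskeletal protein of myelinating cells, was at 71.9, 46.99 and 33.7 CPM in metestrus and at 40.4, 33.1 and 26.0 CPM in proestrus, a log2 fold change of 0.70 ± 0.23 (SE; edgeR, unadjusted p = 0.008837). Aspa, the enzyme that splits N-acetylaspartate for lipid synthesis, was at 24.1, 13.9 and 13.7 CPM in metestrus and at 11.6, 13.6 and 11.2 CPM in proestrus. Mbp, myelin basic protein, was at 2123, 1715 and 1238 CPM in metestrus and at 1650, 1244 and 1145 CPM in proestrus. In these 3 genes Metestrus 1 was highest and Metestrus 3 lay within the proestrus range or close to it. The list summed to 6224, 4828 and 3598 CPM in metestrus and to 4519, 3737 and 3196 CPM in proestrus. Without Metestrus 1 the median was 0.16 and without Proestrus 3 it was 0.24, with 0 members at an unadjusted p under 0.05 in either case.

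**Figure D4:**
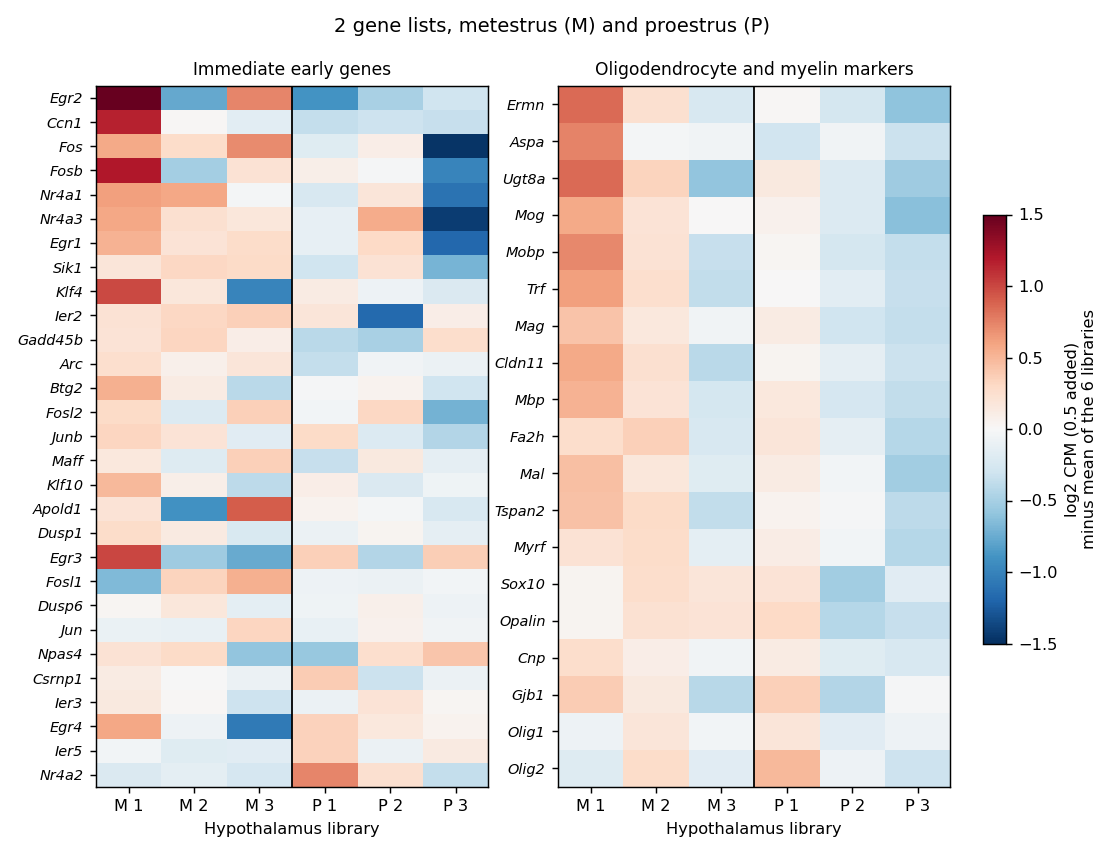
Log2 CPM (0.5 added) minus the mean of the 6 libraries for the 29 tested immediate early genes (left) and 19 of the 20 oligodendrocyte and myelin markers (right), in Metestrus 1 to 3 and Proestrus 1 to 3, on a colour scale that ends at 1.5 in either direction. Metestrus 1 is the reddest column of both panels and Proestrus 3 the bluest of many rows, as in Fos at 6.37 CPM.

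Most genes through which the hypothalamus reads ovarian steroids and drives reproduction had overlapping groups. Of 13 tested steroid hormone receptor genes, 10 lay above 0, with a median log2 fold change of 0.07 and 0 at an unadjusted p under 0.05. Only Pgrmc2, a membrane-associated progesterone receptor component, did not overlap (7.69%, against 3.17% of all genes with metestrus higher). It was at 96.5, 95.2 and 98.6 CPM in metestrus and at 94.2, 91.1 and 89.3 CPM in proestrus, a log2 fold change of 0.08 (edgeR, unadjusted p = 0.3836). Esr1, estrogen receptor alpha, was at 31.3, 27.96 and 26.9 CPM in metestrus and at 24.2, 31.5 and 24.3 CPM in proestrus, with a log2 fold change of 0.15 ± 0.18 (SE, 95% interval -0.22 to 0.53). Pgr, the progesterone receptor, which estrogen induces in the hypothalamus, was at 14.1, 17.4 and 19.5 CPM in metestrus and at 21.9, 27.2 and 19.3 CPM in proestrus. The direction of Pgr was lower in metestrus, with overlap between Metestrus 3 and Proestrus 3, and the log2 fold change was -0.43 ± 0.27 (SE, 95% interval -1.01 to 0.14). Of 12 tested genes that depend on estrogen in the hypothalamus, 6 lay above 0 and 6 below, with a median of 0.04 and 0 at an unadjusted p under 0.05. Tac2, neurokinin B of the arcuate kisspeptin neurons, was at 10.8, 13.4 and 12.6 CPM in metestrus and at 11.6, 13.2 and 16.6 CPM in proestrus. Gnrh1, the hormone that releases gonadotropins, had 2, 1 and 0 counts in metestrus and 1, 0 and 1 in proestrus, below what the test needs. Lhb and Kiss1 were not analysed here.

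The neurohypophysial hormones had overlapping groups. Oxt, oxytocin, was at 124, 87.4 and 102 CPM in metestrus and at 84.6, 87.2 and 96.2 CPM in proestrus, a log2 fold change of 0.23 ± 0.24 (SE, 95% interval -0.29 to 0.75). Avp, vasopressin, was at 220, 167 and 197 CPM in metestrus and at 206, 181 and 201 CPM in proestrus, a log2 fold change of -0.01 ± 0.18 (SE, 95% interval -0.40 to 0.37). Avpr1a, the vasopressin receptor of brain, was lower without overlap, at 4.79, 3.52 and 3.16 CPM in metestrus and at 7.25, 6.23 and 5.65 CPM in proestrus. Its log2 fold change was -0.66 ± 0.37 (SE; edgeR, unadjusted p = 0.09383). Among 7 tested genes of the oxytocin and vasopressin system, only Avpr1a did not overlap (14.3%, against 4.33% of all genes with metestrus lower).

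Among the feeding genes, 17 were tested, with 7 above 0 and 10 below and a median of -0.01, and 2 (11.8%, against 4.33% of all genes) were lower in metestrus without overlap, Mchr1 and Mc4r. Npy, the appetite-promoting neuropeptide Y, was at 17.1, 8.46 and 15.3 CPM in metestrus and at 16.9, 23.4 and 32.1 CPM in proestrus. Only Metestrus 1 and Proestrus 1 overlapped, and the log2 fold change was -0.85 ± 0.27 (SE; edgeR, unadjusted p = 0.007007). Agrp, which the same arcuate neurons make, was at 6.28, 5.64 and 3.69 CPM in metestrus and at 5.70, 3.50 and 8.52 CPM in proestrus, with a log2 fold change of -0.21 ± 0.34 (SE), and its annotated span overlaps other expressed genes. Mchr1, the receptor of melanin-concentrating hormone, was at 6.28, 5.40 and 6.85 CPM in metestrus and at 8.11, 10.1 and 8.22 CPM in proestrus. Mc4r, the melanocortin receptor through which POMC and AgRP neurons set food intake, was at 1.94, 0.470 and 1.58 CPM in metestrus and at 2.42, 3.89 and 2.16 CPM in proestrus, from 2 to 21 counts per library. Trh, thyrotropin-releasing hormone, which also stimulates prolactin cells, was at 75.4, 57.8 and 78.5 CPM in metestrus and at 47.6, 59.6 and 27.7 CPM in proestrus. Proestrus 3 was the lowest library of Trh and Proestrus 2 lay above Metestrus 2, and the log2 fold change was 0.70 ± 0.27 (SE; edgeR, unadjusted p = 0.01932).

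Several other lists had medians near that of all genes. The medians were 0.01 for 20 clock genes, 0.04 for 18 genes of cholesterol synthesis, 0.07 for 17 genes that glucocorticoids induce and 0.06 for 14 heat shock and cold-inducible genes, each with 0 members at an unadjusted p under 0.05 in either direction. For 14 astrocyte markers the median was 0.08, for 14 microglia markers 0.04 and for 16 endothelial and pericyte markers -0.08. Siglech, a microglial lectin gene, was the only microglia marker without overlap (7.14%, against 3.17% of all genes with metestrus higher), at 8.97, 7.99 and 6.32 CPM in metestrus and at 6.21, 5.84 and 5.03 CPM in proestrus. Of 13 messenger RNAs of the mitochondrial genome, 12 lay above 0, with a median of 0.14 and 0 without overlap. Medians further above 0 were those of 5 blood cell markers (0.37, all 5 above 0), 11 releasing hormones and other peptides (0.23, 8 above 0), 6 choroid plexus markers (0.18, 5 above 0), 12 interferon-stimulated genes (0.17, 9 above 0), 7 genes of the kisspeptin and GnRH system (0.12, 5 above 0) and 12 striatal markers (0.12, 9 above 0). Of these 6 lists, no member lacked overlap and only Trh had an unadjusted p under 0.05. The hemoglobin gene Hbb-bs, a blood cell marker, was at 78.7, 43.5 and 34.3 CPM in metestrus and at 29.7, 38.1 and 43.2 CPM in proestrus, and was highest in Metestrus 1, with reads that nearly identical hemoglobin genes may share. Among 17 mitochondrial aminoacyl-tRNA synthetase genes, Lars2 had a log2 fold change of 0.98 ± 0.81 (SE), and the median of the list was 0.05.

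The meningeal and fibroblast markers differed most within metestrus. These 18 genes summed to 2010, 1571 and 242 CPM in Metestrus 1, 2 and 3 and to 1344, 1301 and 1778 CPM in Proestrus 1, 2 and 3. Metestrus 3, which had the highest Prl and Gh, had the least meningeal RNA of the 6 libraries, and 2 of the 18 markers were at 0 there. The median log2 fold change of the list was -0.03, with 7 of 18 members above 0. Its direction rested on single libraries: the median was 0.29 without Metestrus 3, 0.28 without Proestrus 3 and -0.63 without Metestrus 1. The part of the meninges in the other differences of the comparison was not tested.

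**Figure D5:**
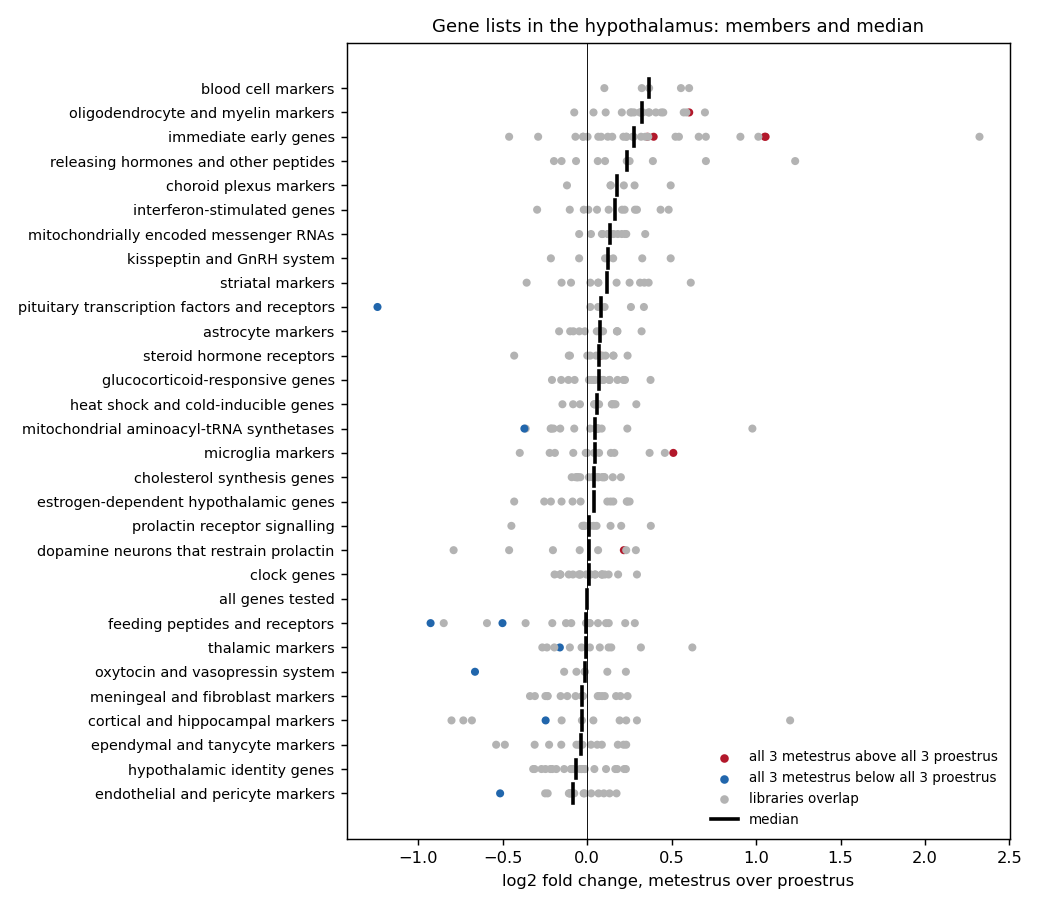
Log2 fold changes of metestrus over proestrus of the tested members of 29 gene lists (points) and the median of each (black bar), with the median of all genes tested at -0.002; the pituitary hormone list, which holds Prl and Gh, is not drawn. Red points are members with all metestrus libraries above all proestrus libraries and blue points those with all below, and the highest medians are those of blood cell, myelin and immediate early genes.

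In the test against the other 3 regions, the smallest unadjusted p-values belonged to Mad2l1 and Etv4, and none passed the adjustment (edgeR, adjusted p = 1 for both). For Mad2l1 the difference between metestrus and proestrus was larger in the hypothalamus by 1.32 ± 0.30 on the log2 scale (SE; edgeR, unadjusted p = 8.988e-05). Etv4, a transcription factor of the ETS family, was at 1.94, 3.76 and 2.63 CPM in metestrus and at 6.04, 4.67 and 5.75 CPM in proestrus, lower without overlap, with a log2 fold change of -1.03 ± 0.34 (SE). Its difference in the hypothalamus minus that of the other regions was -1.22 ± 0.29 on the log2 scale (SE; edgeR, unadjusted p = 1.684e-04). Gm1947, a processed pseudogene whose reads cannot be told apart from those of nearly identical genes, came next (edgeR, unadjusted p = 0.0002712), with 0, 0 and 0 hypothalamus counts in metestrus and 7, 5 and 6 in proestrus. For Npy, which was further down this order, the same quantity was -0.87 ± 0.26 (SE; edgeR, unadjusted p = 0.00187, adjusted p = 1). Fos had a higher mean in metestrus in the other regions too. In the hippocampus its mean was 22.3 CPM in metestrus and 11.8 CPM in proestrus, without overlap. In the neocortex it was 98.9 CPM in metestrus and 69.0 CPM in proestrus, and in the cerebellum 62.5 CPM in metestrus and 35.8 CPM in proestrus, with overlap in both. The difference of Fos in the hypothalamus minus that of the other regions was 0.34 ± 0.53 (SE; edgeR, unadjusted p = 0.5261).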

How the data were processed

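Messenger RNA of the hypothalamus was sequenced in 12 libraries, 3 for each stage, and the comparison uses the 3 of metestrus and the 3 of proestrus. The authors deposited raw counts of 37315 Ensembl genes, which were not normalized. Per the labels' protocols, libraries were made with a NEBNext Ultra RNA kit, which does not mark strand, and spike-in RNA was added. Per the submitters' processing notes, reads were handled with TopHat2 2.0.8, Cufflinks 2.1.1, DESeq 1.12.1, Trimmomatic 0.32 and SAMtools, in no stated order, on the builds GRCm38 and mm10. Neither the counting program nor its annotation is given in the sources used here. GENCODE M21 gave symbols, types and coordinates for 35449 identifiers, and 1866 kept their identifiers.

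Stage was fitted over all 12 hypothalamus libraries in R 4.3.3 by the quasi-likelihood method of edgeR 4.0.16, with TMM scaling after filterByExpr (minimum count 10, minimum total 15), as metestrus minus proestrus, with Benjamini-Hochberg adjustment over 15230 genes and a threshold of 0.05. Standard errors and 95% intervals come from that fit. The difference against the other 3 regions was fitted over 47 libraries. DESeq2 1.42.0 and limma 3.58.1 voom, with and without sample quality weights, were alternatives, as were other scalings, filters and covariates and leaving out each library. A covariate for the Lars2 share, and leaving out libraries in the count of genes without overlap, were alternatives chosen after seeing the data. The edgeR fit of stage was tested on simulated counts, and the fit against the other regions and the alternatives were not. The floor is 3 counts over the group, and neither floors nor Poisson intervals hold more than counting error, because PCR copies were not told apart by molecular identifiers.

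The members and the 30 gene lists were chosen with earlier results of these data known, so lists are described by counts and medians, without a test. The named genes were those called by a tool, the 10 with the smallest p and the 5 with the largest fold change in each direction, fixed hormone and control genes, the 2 of smallest p in each list, and the 3 with the smallest p in the test against the other regions. Some of these are given only within the counts of their list, and a few genes are not reported here. Mc4r, Egr1, Ccn1, Arc, Ier2, Nr4a1, Egr2, Ugt8a, Mog, Pitx1, Lhx3 and Pgrmc2 were named after their values were seen. Proestrus and metestrus libraries of the same number did not deviate together, and they were treated as unpaired.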

Additional observations from a re-analysis of the deposited data

Results flagged for a closer look

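Cpxm1 was flagged because its groups differed in opposite directions in 2 regions. In the hippocampus it averaged 4.98 CPM in metestrus and 3.94 CPM in proestrus, with every metestrus library above every proestrus library, while in the hypothalamus it averaged 2.14 CPM ± 0.949 in metestrus and 4.97 CPM ± 1.32 in proestrus (SD, n = 3 each), with every metestrus library below. The 2 regions alone were not tested against each other. Against the mean of the other 3 regions the difference was -1.29 ± 0.40 on the log2 scale (SE; edgeR, unadjusted p = 0.002907, adjusted p = 1).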

How the results depend on the processing

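Limma voom with sample quality weights called 1 gene (Prl) and library totals without TMM called 2 (Prl and Gh). The fit without a filter on low counts called 10, among them Prl, Gh, Fos, Nr4a1, Ermn and Trh, and the cause was not tested. The replicate number as a block called 1 (Prl, adjusted p = 0.01564 in edgeR), although the labels do not pair libraries and the deviations of libraries with the same number correlated at 0.12, 0.06 and -0.25. DESeq2, voom, RLE scaling, a mean CPM of at least 1, the 6 libraries alone, age as a factor and a covariate for the Lars2 share called 0 in edgeR or the tool named, with adjusted p-values of Prl from 0.05161 to 0.9999. Leaving out 1 of 12 libraries gave 0 to 1 calls, the 1 being Prl without Metestrus 3. Genes without overlap numbered 61 higher with library totals, and 925 to 1656 higher and 1077 to 1751 lower when 1 library was left out, where fewer samples make overlap rarer. In the test against the other regions, leaving out 1 library gave 0 to 1 calls (Kcnab3 without Metestrus 2), and the replicate block called 0. The log2 fold change of Drd2 turned to -0.088 with library totals and -0.115 with age as a factor, and that of Prlr to -0.016 with age. With the Lars2 covariate it turned to 0.038 in Avp, 0.056 in Agrp and -0.05 in Lars2. Leaving out 1 library gave ranges of -0.121 to 0.094 in Avp, -0.156 to 0.081 in Th, -0.117 to 0.217 in Drd2, -0.386 to 0.194 in Agrp, -0.017 to 0.285 in Prlr and -0.188 to 0.535 in Pomc. Pgrmc2 and Nr4a2 were not followed through these alternatives, and none of the other genes given here with a log2 fold change turned direction under them. Genes with few counts, such as Mad2l1, Sh3tc2, Atp10b and Mc4r, are limited by the depth of Metestrus 3 and Proestrus 2.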

Other observations

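Vip, the peptide of light-receiving neurons in the suprachiasmatic nucleus, the clock of the brain, was at 14.7, 6.11 and 5.27 CPM in metestrus and at 5.35, 10.5 and 0.103 CPM in proestrus, so that Proestrus 3, with 1 count in a total of 8264980, was nearly without it. Prok2, another output peptide of that nucleus, was at 2.09, 2.82 and 2.64 CPM in metestrus and at 1.21, 3.11 and 0.205 CPM in proestrus. Rgs16, a regulator of G-protein signalling in the same cells, was at 39.5, 35.0 and 36.4 CPM in metestrus and at 30.5, 45.5 and 16.1 CPM in proestrus. These genes were chosen after their values were seen. In each of them Proestrus 3 was the lowest of the 6 libraries, and the groups overlapped.

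Foxb1 and Lmx1a, genes of the posterior hypothalamus, had lower means in metestrus than in proestrus. Foxb1, a transcription factor of the mammillary area, was at 10.9, 24.9 and 31.1 CPM in metestrus and at 34.7, 30.7 and 40.6 CPM in proestrus, with a log2 fold change of -0.81 ± 0.34 (SE; edgeR, unadjusted p = 0.02964, adjusted p = 0.9998). It overlapped only between Metestrus 3 and Proestrus 2 and was lowest in Metestrus 1. Lmx1a, which marks the subthalamic and posterior area as well, had 8, 5 and 2 counts in metestrus and 23, 7 and 17 in proestrus, which the low-count filter left out. Barhl1, looked at together with them and also left out by the filter, had 8, 5 and 3 counts in metestrus and 15, 1 and 18 in proestrus. Hcrt, orexin of the lateral hypothalamus, was at 31.4, 36.4 and 27.4 CPM in metestrus and at 63.2, 33.9 and 8.83 CPM in proestrus, so that within proestrus alone it spanned the whole range. These genes were also chosen after their values were seen.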
